A study of Homo sapiens with 10 samples.

Results

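The cadherin switch and its transcription factors were followed here through 10 genes, CDH1, CDH2, VIM, FN1, ZEB1, ZEB2, SNAI1, SNAI2, TWIST1 and EPCAM, taken by gene symbol from the long RNA count tables. All 10 were present, each on a single Ensembl row, among 55771 gene symbols. In the epithelial to mesenchymal transition (EMT), epithelial cells replace E-cadherin (CDH1) by N-cadherin (CDH2), lose the surface protein EPCAM, and make more vimentin and fibronectin. Transcription factors of the ZEB, SNAI and TWIST families bind E-box motifs and repress CDH1, and ZEB1 and ZEB2 are in turn targets of the miR-200 microRNAs. Airway basal cells and bronchial lines can carry part of this programme in culture.

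Per the labels, the cells were BEAS-2B, an immortalised human bronchial epithelial line, grown in LHC9 medium with serum. Stable lines had been made with a TAF1C vector or an empty vector, per the labels with a pCMV6 promoter, and both kinds were held under the selection drug G418. TAF1C belongs to SL1, the factor that recruits RNA polymerase I to ribosomal RNA genes. The libraries labelled TAF1C numbered 3 and the empty vector (eV) libraries 2 for long RNA, with the same numbers for small RNA. The labels do not say whether a line is 1 clone or whether replicates were separate cultures, so p measures the spread between these libraries, which may be technical.

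Long RNA libraries held 22809601 to 37533366 gene counts. TAF1C itself was at 64.0, 59.0 and 67.0 CPM in the libraries labelled TAF1C and at 64.4 and 77.7 CPM in the eV libraries, a log2 fold change of -0.17 ± 0.13 (SE) with an edgeR adjusted p = 0.353. TAF1C RNA was therefore not higher in the libraries labelled TAF1C, so its level does not bear the labels out. The reason was not tested, and each difference below is one between libraries as they were labelled. CPM values are counts relative to TMM-adjusted library size, not divided by transcript length, so each value is compared between libraries for the same gene and not between genes. The eV libraries stood apart from each other: the SD of their log2 difference over 18402 genes was 1.08, against 0.383 to 0.416 between pairs of libraries labelled TAF1C. Markers of photoreceptors summed to 12.1 to 17.7 CPM in the libraries labelled TAF1C and to 2622 and 2052 CPM in the eV libraries, and 13 of 14 tested ones fell (8 of 14 without any 1 of the libraries labelled TAF1C). Among all genes tested, 22.6% fell. Of the 14 tested photoreceptor markers, 7 did not reach 1 CPM in any library labelled TAF1C. These entered the test through the eV libraries alone, so a fall was the direction open to them. With 6 photoreceptor markers tested, the median log2 fold change was -3.72 without eV replicate 1 and -4.46 without replicate 2. Neuronal markers summed to 9.41 to 9.85 CPM in the libraries labelled TAF1C and to 482.8 and 402.5 CPM in the eV libraries, and 9 of 9 tested ones fell (7 of 9 without any 1 of the libraries labelled TAF1C), 5 of them having entered the test through the eV libraries alone. With 3 neuronal markers tested, the median log2 fold change was -3.97 without eV replicate 1 and -5.51 without replicate 2. Airway markers summed to 1333 to 1449 CPM in the libraries labelled TAF1C and to 364.7 and 370.3 CPM in the eV libraries. The airway sum came mainly from the keratins KRT7 and KRT8, while the basal markers KRT5, KRT14 and TP63 stayed under 2 CPM in every library. Whether the eV long RNA libraries hold other cells than the labelled line, and the part of these markers in the results below, was not tested, and in bulk RNA fewer cells of a type cannot be told from less RNA per cell.

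**Figure D1:**
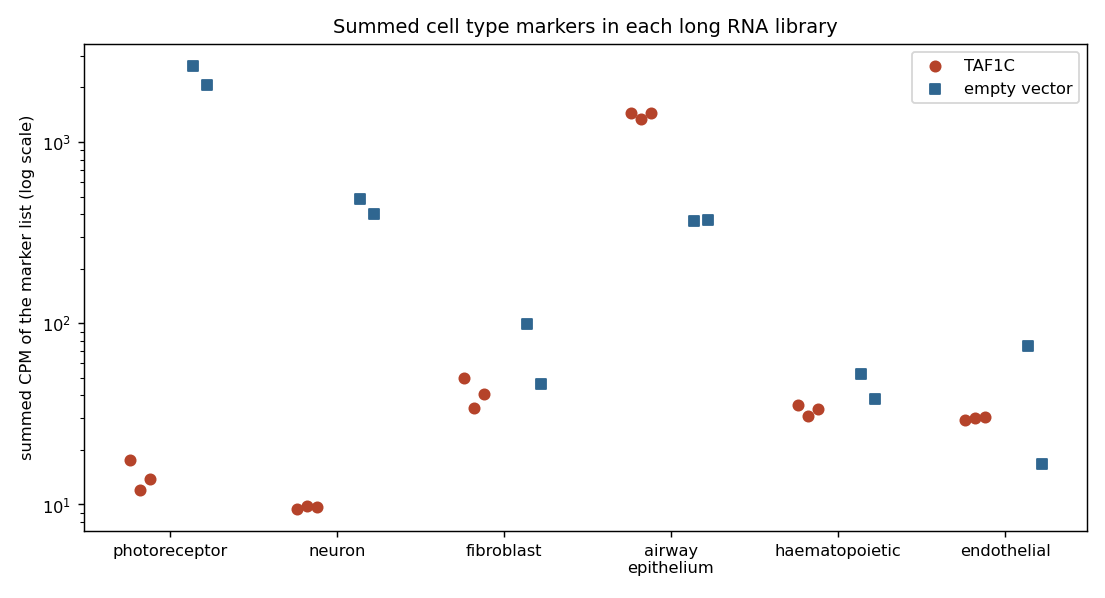
Summed CPM of 6 cell type marker lists (log axis), 1 point per long RNA library, with libraries labelled TAF1C as circles and eV libraries as squares. Photoreceptor markers sum to 12.1 to 17.7 CPM in the libraries labelled TAF1C and to 2622 and 2052 CPM in the eV libraries.

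Of the 10 genes, 4 rose (FN1, SNAI2, TWIST1 and VIM), 2 fell (ZEB1 and EPCAM) and 4 did not pass the test (CDH1, CDH2, ZEB2 and SNAI1) in the libraries labelled TAF1C at an edgeR quasi-likelihood adjusted p under 0.05. Among all 18402 genes tested, 15.9% rose and 22.6% fell, 38.5% in all. The groups did not overlap for 6 of the 10 genes, against 64.2% of all genes tested. All libraries labelled TAF1C lay above both eV libraries for 4 of the 10 (29.8% of all genes) and below both for 2 of the 10 (34.4% of all genes). EPCAM, counted as fallen and as separate, reached 1 CPM in the eV libraries alone, so a fall was the direction open to it. The median log2 fold change was 0.03 over the 10 genes and -0.10 over all genes. FN1, SNAI2, TWIST1, VIM and ZEB1 kept their call and direction in all 11 alternative analyses, whereas the direction of CDH1, CDH2, ZEB2 and SNAI1 depended on which eV library was used. In a fit with 1 eV library, that library is assumed to vary like the libraries labelled TAF1C, so the p of such a fit rests on their smaller spread. For gene lists, such fits are therefore described by medians. The median of all genes was -0.000283 without eV replicate 1 and -0.0251 without replicate 2. Fewer genes passed with 1 of the libraries labelled TAF1C left out. Of 18109 to 18243 genes tested there, 1058 to 1182 rose and 1960 to 2043 fell.

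Among the mesenchymal products, fibronectin changed by the largest factor. FN1, the matrix glycoprotein that cells bind through integrins, stood at 2417, 2455 and 2460 CPM in the libraries labelled TAF1C and at 241.8 and 179.9 CPM in the eV libraries. Every library labelled TAF1C lay far above both eV libraries, and the spread among them was small. Mean FN1 was 2444 ± 23.5 CPM (SD) in the 3 libraries labelled TAF1C and 210.9 ± 43.8 CPM (SD) in the 2 eV ones, an 11.6-fold difference, with a log2 fold change of 3.54 ± 0.23 (SE) and an edgeR adjusted p = 0.000476. With either eV library left out, the log2 fold change was between 3.30 and 3.70. The region just upstream of FN1 is shown because FN1 rose the most of the 10 genes. It is the RefSeq window from 250 bases before to 50 after the annotated start, at chr2:215436019-215436318 (GRCh38.p14, minus strand), with capitals marking the motif TGACGTCA, bound by CREB and ATF factors.

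FN1: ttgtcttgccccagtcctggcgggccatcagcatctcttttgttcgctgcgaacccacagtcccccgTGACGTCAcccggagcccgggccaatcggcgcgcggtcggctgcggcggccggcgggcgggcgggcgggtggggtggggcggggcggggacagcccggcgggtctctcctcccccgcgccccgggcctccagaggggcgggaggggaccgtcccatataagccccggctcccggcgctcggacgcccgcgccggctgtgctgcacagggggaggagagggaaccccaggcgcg

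The motif, which reads the same on both strands, begins 183 bases before the start, and 1.85% of 35116 such windows hold it. The match describes these letters and was not tested as a binding site in these cells.

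VIM, the intermediate filament protein of mesenchymal cells, stood at 246.4, 271.3 and 251.3 CPM in the libraries labelled TAF1C and at 113.2 and 140.1 CPM in the eV libraries. The groups did not overlap. Mean VIM was 256.3 ± 13.2 CPM (SD) in the 3 libraries labelled TAF1C and 126.6 ± 19.0 CPM (SD) in the 2 eV ones, 2.02-fold higher (log2 fold change 1.02 ± 0.14 (SE), edgeR adjusted p = 0.00441). VIM-AS1, an antisense transcript at the same locus, was at 0.897 to 1.51 CPM in the libraries labelled TAF1C and at 0.372 and 0.853 CPM in the eV libraries, and did not pass (adjusted p = 0.157). No source used here says whether the counting used strand, so reads of such overlapping pairs cannot be told apart.

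**Figure D2:**
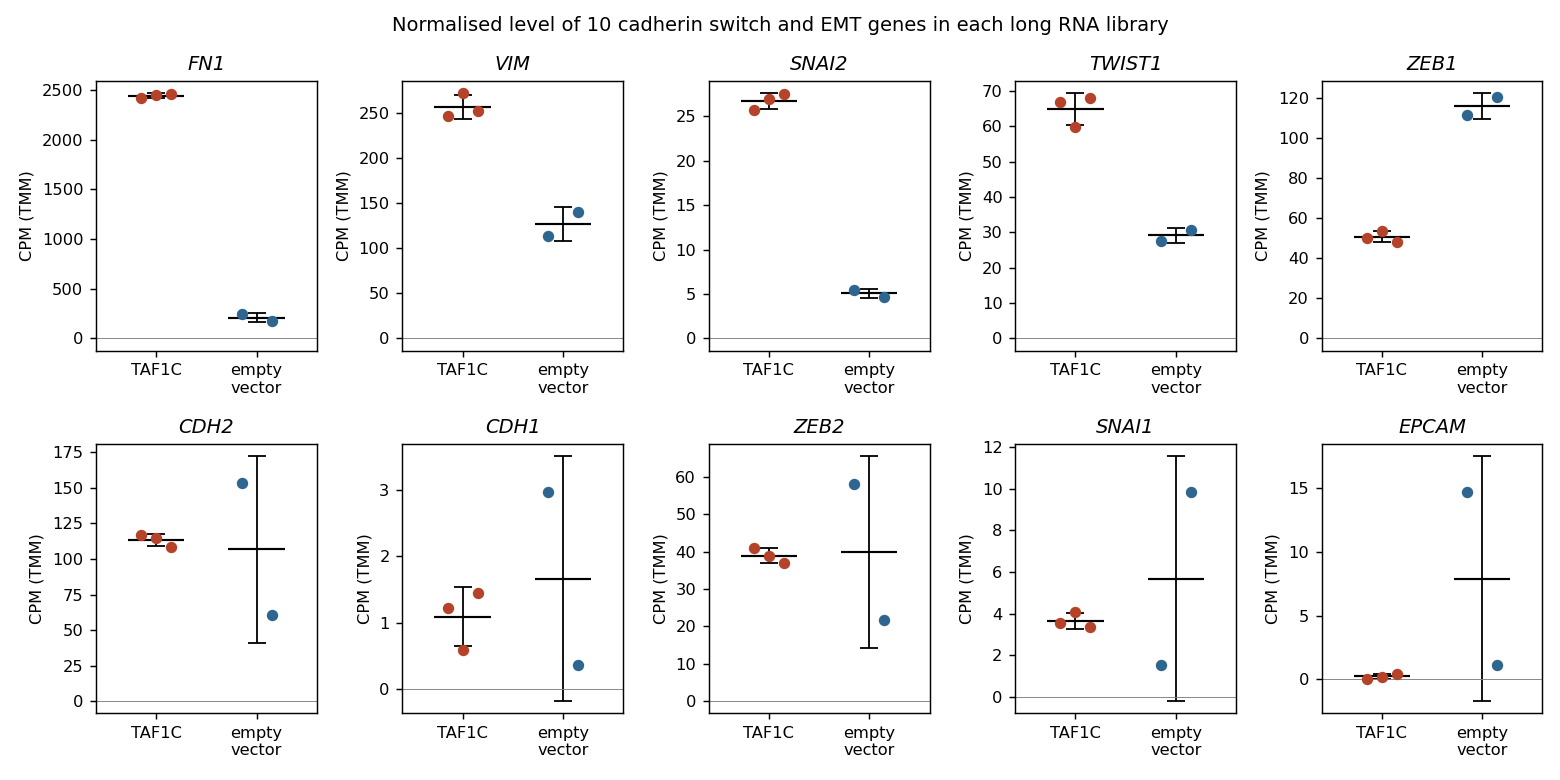
CPM of each of the 10 genes, 1 panel per gene, with 1 point per library (left, 3 libraries labelled TAF1C, and right, 2 eV libraries) and the mean with its SD as bars. FN1, VIM, SNAI2, TWIST1, ZEB1 and EPCAM separate the groups, while for CDH2, CDH1, ZEB2 and SNAI1 the libraries labelled TAF1C lie between the 2 eV libraries.

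The cadherins themselves did not pass the test. CDH1, the epithelial cadherin, was barely detected, with 43, 20 and 47 counts in the libraries labelled TAF1C and 80 and 10 counts in the eV libraries. In CPM this was 1.23, 0.588 and 1.45 in the libraries labelled TAF1C and 2.97 and 0.355 in the eV libraries. The empty vector values were 8.36-fold apart and enclosed all values of the libraries labelled TAF1C. The fitted log2 change of CDH1, -0.61 ± 0.87 (SE), did not pass (edgeR adjusted p = 0.61). Its log2 fold change was 1.54 (adjusted p = 0.048) without eV replicate 1 and -1.48 (adjusted p = 0.00616) without replicate 2.

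CDH2, the cadherin of mesenchymal and neural cells, stood at 116.6, 115.0 and 108.3 CPM in the libraries labelled TAF1C and at 153.2 and 60.2 CPM in the eV libraries. Here too the eV libraries lay on either side of the others, 2.54-fold apart, while the libraries labelled TAF1C differed by at most 1.08-fold. Its fitted log2 change, 0.09 ± 0.37 (SE), did not pass (edgeR adjusted p = 0.87). It was 0.85 (adjusted p = 2.8e-09) without eV replicate 1 and -0.47 (adjusted p = 8.16e-06) without replicate 2, and -0.20 (adjusted p = 0.748) when library totals replaced TMM scaling.

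The share of CDH2 in the counts of both cadherins does not depend on library scaling. It was 99.0% (95% Wilson interval 98.6 to 99.2%), 99.5% (99.2 to 99.7%) and 98.7% (98.2 to 99.0%) in the libraries labelled TAF1C. In the eV libraries it was 98.1% (97.6 to 98.5%) and 99.4% (98.9 to 99.7%). These intervals cover counting error only, and the share takes no account of transcript length. The groups overlapped, and the share was highest in replicate 2 of each.

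EPCAM, an adhesion protein of epithelial surfaces, fell in the libraries labelled TAF1C but from very unequal levels in the eV libraries. It had 2, 6 and 14 counts in the libraries labelled TAF1C and 396 and 31 counts in the eV libraries. As CPM these were 0.0570, 0.177 and 0.433 in the libraries labelled TAF1C and 14.7 and 1.10 in the eV libraries. The groups did not overlap, but the eV libraries were 13.4-fold apart. EPCAM fell by 5.14 ± 1.24 (SE) on the log2 scale (edgeR adjusted p = 0.0236). EPCAM reached 1 CPM in the eV libraries alone, so it entered the test only through the group where it was high. Its call was lost without replicate 1, 2 or 3 of the libraries labelled TAF1C (adjusted p = 0.0828, 0.11 and 0.0608) and it could not be fitted with an eV library left out.

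Among the transcription factors, SNAI2 and TWIST1 rose and ZEB1 fell. SNAI2 (Slug), a zinc finger repressor expressed by basal epithelial and neural crest cells, stood at 25.7, 26.9 and 27.5 CPM in the libraries labelled TAF1C and at 5.43 and 4.69 CPM in the eV libraries. All libraries labelled TAF1C were well above both others. Mean SNAI2 was 26.7 ± 0.886 CPM (SD) in the 3 libraries labelled TAF1C and 5.06 ± 0.519 CPM (SD) in the 2 eV ones, 5.28-fold higher (log2 fold change 2.40 ± 0.17 (SE), edgeR adjusted p = 0.000572).

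TWIST1, a basic helix-loop-helix factor of mesoderm and neural crest, stood at 66.9, 59.8 and 68.0 CPM in the libraries labelled TAF1C and at 27.7 and 30.8 CPM in the eV libraries. The groups were separate and each was tight. TWIST1 was 2.22-fold higher in the libraries labelled TAF1C (log2 fold change 1.15 ± 0.13 (SE), edgeR adjusted p = 0.002).

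SNAI1 (Snail), the close relative of SNAI2, did not follow it. It stood at 3.54, 4.09 and 3.34 CPM in the libraries labelled TAF1C and at 1.52 and 9.85 CPM in the eV libraries. The eV libraries were 6.46-fold apart, with replicate 2 the higher one, the opposite order to CDH1, CDH2, ZEB2 and EPCAM. Its log2 fold change of -0.64 ± 0.71 (SE) did not pass (edgeR adjusted p = 0.511). It was -1.49 (adjusted p = 6.6e-07) without eV replicate 1 and 1.23 (adjusted p = 0.0032) without replicate 2.

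ZEB1, a zinc finger and homeodomain repressor of CDH1, stood at 50.3, 53.7 and 48.3 CPM in the libraries labelled TAF1C and at 111.4 and 120.4 CPM in the eV libraries. Every library labelled TAF1C lay at less than 0.5 of the level of either eV library. Mean ZEB1 was 50.8 ± 2.72 CPM (SD) in the 3 libraries labelled TAF1C and 115.9 ± 6.36 CPM (SD) in the 2 eV ones, with a log2 fold change of -1.19 ± 0.11 (SE) and an edgeR adjusted p = 0.0011. It ran from -1.41 to -1.10 over all alternatives. ZEB1-AS1, a noncoding RNA transcribed next to ZEB1 in the other direction, fell with it, at 4.36 to 5.02 CPM in the libraries labelled TAF1C and 15.5 and 10.3 CPM in the eV libraries (log2 fold change -1.49 ± 0.26 (SE), edgeR adjusted p = 0.00888). The ZEB1-AS1 call was lost without TAF1C replicate 2 or 3 (adjusted p = 0.0562 and 0.057).

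The window at the first annotated ZEB1 start, chr10:31318167-31318466 (GRCh38.p14, plus strand), is shown because ZEB1 was the 1 factor of the group that fell and because it holds the E-box CAGGTG, the type that SNAI and ZEB proteins bind. Capitals mark this E-box, which was searched on both strands.

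ZEB1: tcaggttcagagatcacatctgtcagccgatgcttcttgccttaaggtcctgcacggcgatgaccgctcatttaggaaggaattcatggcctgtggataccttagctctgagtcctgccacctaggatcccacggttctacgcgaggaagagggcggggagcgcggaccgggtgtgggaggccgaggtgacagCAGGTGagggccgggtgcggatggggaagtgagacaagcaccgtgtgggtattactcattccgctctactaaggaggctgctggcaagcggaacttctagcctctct

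The E-box begins 57 bases before the start and was not tested as a binding site in these cells. It occurs in 2 of 7 RefSeq windows of ZEB1, in none of the windows of FN1 (1), VIM (1), ZEB2 (1) and CDH2 (2), and in 20.6% of all 35116 windows. RefSeq windows were not used here for CDH1, SNAI1, SNAI2, TWIST1 and EPCAM.

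ZEB2, the paralog of ZEB1, stood at 41.0, 38.9 and 36.9 CPM in the libraries labelled TAF1C and at 58.1 and 21.8 CPM in the eV libraries. The eV libraries lay on either side of the others, 2.67-fold apart. Its log2 fold change of -0.04 ± 0.39 (SE) did not pass (edgeR adjusted p = 0.95). It was 0.77 (adjusted p = 1e-06) without eV replicate 1 and -0.61 (adjusted p = 2.95e-06) without replicate 2.

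For CDH1, CDH2, ZEB2 and SNAI1, all libraries labelled TAF1C lay between the 2 eV libraries, 4 of the 10 genes against 16.3% of all genes tested. This share of the members is a description of 10 chosen genes.

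**Figure D3:**
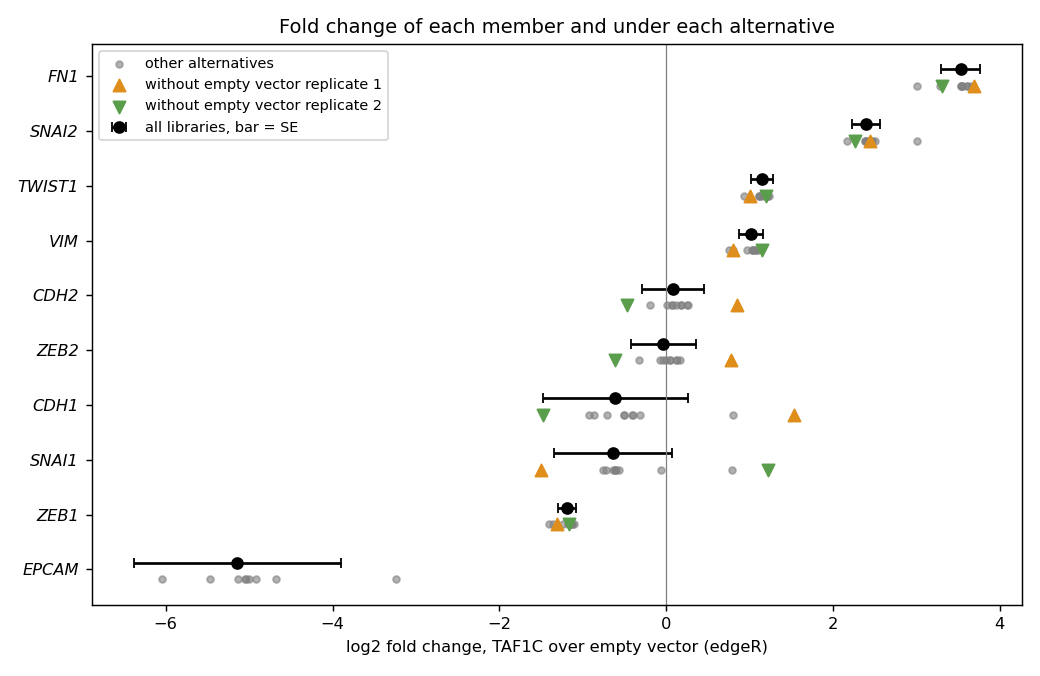
Log2 fold change (libraries labelled TAF1C over eV) of each gene with all libraries (black, bar = SE) and under each alternative (grey points, with triangles for the fits without 1 eV library). CDH1, CDH2, ZEB2 and SNAI1 change sign between the fits without replicate 1 and without replicate 2, at 1.54 and -1.48 for CDH1.

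The genes most like each member were those with the smallest Euclidean distance of centred log2 CPM over the 5 libraries, among tested genes of at least 5 CPM on average. ZEB2 was the second closest gene to CDH2 (distance 0.135, after TMEM65 at 0.124), and CDH2 the second closest to ZEB2 (after TMEM159 at 0.107). FN1 was closest to SPOCD1 (0.187) and to the granulocyte growth factor CSF3 (0.195). SNAI2 was closest to the transporter ABCC3 (0.079), TWIST1 to FLJ27365 (0.0433) and the tetraspanin CD151 (0.0566), and VIM to the growth factor TGFB2 (0.058). ZEB1 was closest to RPAIN (0.0799), SNAI1 to the mitochondrial folate enzyme MTHFD2 (0.243), CDH1 to the calcium channel RYR1 (0.516) and EPCAM to PNMAL1 (0.754). With 5 libraries many genes share such a pattern, and distances are smaller for genes that vary less.

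Genes that work with the cadherins went both ways. Among all genes tested, 15.9% rose and 22.6% fell. Of 17 tested cadherins, catenins and their partners, 5 rose, 4 fell and 8 did not pass, with a median log2 fold change of -0.55. Of these 17, 2 did not reach 1 CPM in any library labelled TAF1C, CTNNA2, which fell, and CDH15, which did not pass. Both entered the test through the eV libraries alone, so a fall was the direction open to them. VCL (vinculin), which ties adhesion complexes to actin, stood at 293.1, 318.3 and 296.1 CPM in the libraries labelled TAF1C and at 146.2 and 176.7 CPM in the eV libraries, 1.87-fold higher (edgeR adjusted p = 0.00569). CTNNA1, the alpha-catenin that links cadherins to actin, rose by 0.72 ± 0.16 (SE) on the log2 scale (adjusted p = 0.0183), and CDH4, the R-cadherin, by 1.72 ± 0.41 (SE) (adjusted p = 0.0227). CTNND2, a delta-catenin of neurons, fell, at 0.794 to 1.48 CPM in the libraries labelled TAF1C and 21.7 and 47.9 CPM in the eV libraries. JUP, the plakoglobin of desmosomes and adherens junctions, was at 1.97 to 3.22 CPM in the libraries labelled TAF1C and 31.8 and 12.4 CPM in the eV libraries (adjusted p = 0.00552), and ARVCF, a relative of p120 catenin, fell by 1.89 ± 0.20 (SE) on the log2 scale. The median of the list was 0.35 without eV replicate 1 and -0.85 without replicate 2. With 1 of the libraries labelled TAF1C left out, 1 rose and 3 fell, and the calls of CTNNA1 and CDH4 were among those lost (adjusted p = 0.0818 to 0.0854 and 0.0775 to 0.0872).

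Partners and relatives of the transcription factors mostly did not pass: of 19 tested, 2 rose, 3 fell and 14 did not pass. Their median log2 fold change was 0.06. The shares over all genes tested were 15.9% raised and 22.6% lowered. TWIST2, the paralog of TWIST1, rose with it, at 6.96, 6.76 and 8.29 CPM in the libraries labelled TAF1C and 2.45 and 2.17 CPM in the eV libraries (edgeR adjusted p = 0.00636). SOX4, a factor active in progenitor cells, was at 63.1 to 68.4 CPM in the libraries labelled TAF1C and 301.2 and 165.3 CPM in the eV libraries (adjusted p = 0.00414). ID4, which blocks helix-loop-helix factors, and TCF12, which pairs with them, had log2 fold changes of -4.83 ± 0.82 (SE) and -0.91 ± 0.17 (SE) and also fell, ID4 having entered the test through the eV libraries alone and having no fit with one of them left out. The median of the list was -0.27 without eV replicate 1 and 0.07 without replicate 2. The call of TCF12 was lost without any 1 of the libraries labelled TAF1C (adjusted p = 0.0505 to 0.0577).

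Factors that keep epithelial identity were few and mixed. Of 15 such transcription and splicing factors, 8 were expressed enough to test. Of these 8, 1 rose, 2 fell and 5 did not pass, beside 15.9% raised and 22.6% lowered of all genes. The median log2 fold change of the 8 was 0.33. KLF5, a factor of basal epithelia, was at 56.1, 58.5 and 54.8 CPM in the libraries labelled TAF1C and 30.6 and 33.7 CPM in the eV libraries (edgeR adjusted p = 0.00447). GRHL1, a grainyhead factor, was at 0.143 to 0.882 CPM in the libraries labelled TAF1C and 13.5 and 5.83 CPM in the eV libraries, and FOXA1, a pioneer factor of endoderm, at 0.0882 to 0.285 CPM in the libraries labelled TAF1C and 0.966 and 1.28 CPM in the eV libraries. GRHL1 and FOXA1 reached the test through the eV libraries, and with either of these left out neither was tested. The median of the list was then 0.47 without eV replicate 1 and 0.18 without replicate 2. The call of GRHL1 was lost without TAF1C replicate 3 (adjusted p = 0.0514) and that of FOXA1 without replicate 2 or 3 (0.0601 and 0.0743).

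Epithelial surface and desmosome genes had a median log2 fold change of -0.93. Of 18 tested, 2 rose, 4 fell and 12 did not pass. Among all genes tested, 15.9% rose and 22.6% fell, so the share of this list that fell was near that of all genes. Of the 4 lowered, 2 (CDS1 and MUC1) did not reach 1 CPM in any library labelled TAF1C. They entered the test through the eV libraries alone, so a fall was the direction open to them. The desmosome genes PKP3 and DSC3 rose by 0.93 ± 0.18 (SE) and 1.18 ± 0.23 (SE) on the log2 scale (edgeR adjusted p = 0.0111 and 0.0122). DSP (desmoplakin), the plaque protein of desmosomes, was at 1.71, 1.35 and 1.58 CPM in the libraries labelled TAF1C and 22.6 and 360.2 CPM in the eV libraries, so that the level in the eV libraries differed 16.0-fold. LLGL2, a polarity protein of epithelia, fell more evenly, at 5.09 to 6.05 CPM in the libraries labelled TAF1C and 54.3 and 48.6 CPM in the eV libraries (adjusted p = 0.000232). CDS1, an enzyme of phospholipid synthesis, had a log2 fold change of -1.61 ± 0.45 (SE) (adjusted p = 0.0374) and entered the test through the eV libraries alone. Its call was lost without any 1 of the libraries labelled TAF1C (adjusted p = 0.103 to 0.134), with quantile normalization (0.148) and with no filter (0.0731), and it could not be fitted with an eV library left out. The median of the list was -0.01 with quantile normalization, 0.05 without eV replicate 1 and -0.60 without replicate 2. With 1 of the libraries labelled TAF1C left out, 0 or 1 rose and 1 or 2 fell, PKP3 losing its call in each of these fits (adjusted p = 0.0589 to 0.076), DSC3 without replicate 2 or 3 (0.0691 and 0.0755) and DSP without replicate 2 (0.0548).

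Genes of the mesenchymal cytoskeleton and matrix rose more often than not: of 20 tested, 14 rose, 4 fell and 2 did not pass, with a median log2 fold change of 0.93. Among all genes tested, 15.9% rose and 22.6% fell. The list held 24 genes, of which ACTA2, S100A4, POSTN and FAP were too low to test. Their means were 0.333 to 0.837 CPM in the libraries labelled TAF1C and 0.678 to 2.54 CPM in the eV libraries, each lower in the former. TPM2, an actin-binding tropomyosin, was at 1097, 1067 and 1120 CPM in the libraries labelled TAF1C and 254.6 and 268.8 CPM in the eV libraries, 4.18-fold higher (edgeR adjusted p = 0.000601). TAGLN, a calponin of contractile cells, was at 61.5 to 65.2 CPM in the libraries labelled TAF1C and 22.3 and 22.7 CPM in the eV libraries, and ITGA5, a chain of the fibronectin receptor, at 102.2 to 112.9 CPM in the libraries labelled TAF1C and 30.1 and 23.2 CPM in the eV libraries. ITGA5 was 4.05-fold higher beside the 11.6-fold difference of its ligand FN1. FBN1, a fibrillin of elastic matrix, was lower in the libraries labelled TAF1C, at 39.0 to 43.5 CPM, against 74.0 and 75.5 CPM in the eV libraries (adjusted p = 0.00292). THY1, a surface protein of fibroblasts and neurons, and SYNM, an intermediate filament partner of vimentin, fell by 2.60 ± 0.35 (SE) and 3.02 ± 0.44 (SE) on the log2 scale. Without eV replicate 1 the list had a median log2 fold change of 1.05, and without replicate 2 one of 1.004. In each fit with 1 of the libraries labelled TAF1C left out, 9 genes of the list rose and 3 fell. Markers of fibroblasts mostly did not pass: of 8 tested, THY1 alone fell. Their median log2 fold change was 0.73 without eV replicate 1 and -0.71 without replicate 2. PDGFRB was at 10.0 to 13.4 CPM in the libraries labelled TAF1C and 21.7 and 5.37 CPM in the eV libraries.

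**Figure D4:**
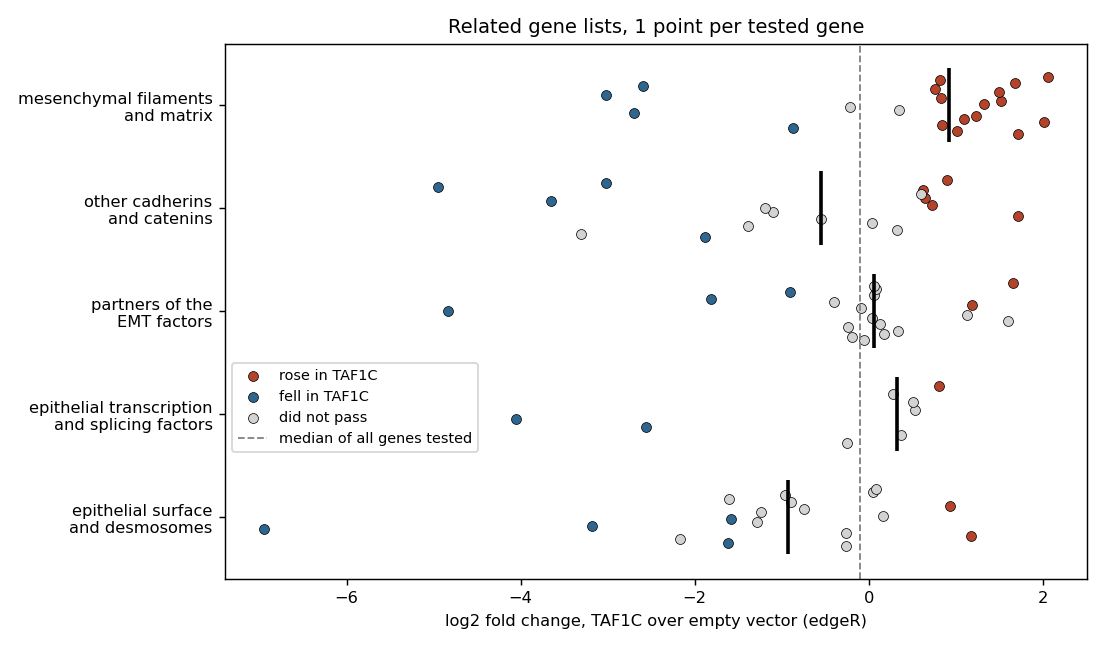
Log2 fold change (libraries labelled TAF1C over eV) of each tested gene in 5 related lists, 1 point per gene, coloured by the edgeR call, with the list's median as a black bar and the median of all genes tested as a dashed line. The medians run from 0.93 for mesenchymal filaments and matrix to -0.93 for the epithelial surface list, beside -0.10 for all genes.

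Small RNA libraries with the same group labels gave a second readout, the miR-200 family, which is known to bind ZEB1 and ZEB2 messages through the 3p arms. The deposited miRNA table names most entries as 5p arms (451 of 612 names, against 19 as 3p and 142 with no arm), so which arm was counted could not be checked. RefSeq mature sequences (GRCh38.p14) are given for miR-429 and the 5p arms of miR-200a, miR-200b and miR-200c, with ZEB-binding 3p arms of the family beside them, with capitals marking the seed, bases 2 to 8.

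miR-429: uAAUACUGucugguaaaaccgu
miR-200c-5p: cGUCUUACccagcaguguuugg
miR-200c-3p: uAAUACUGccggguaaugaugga
miR-200a-5p: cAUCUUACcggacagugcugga
miR-200a-3p: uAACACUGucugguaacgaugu
miR-200b-5p: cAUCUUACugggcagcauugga
miR-200b-3p: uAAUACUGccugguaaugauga
miR-141-3p: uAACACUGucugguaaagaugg

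The sequences fall into 4 seed groups. The seed AAUACUG is shared by miR-429, miR-200c-3p and miR-200b-3p, and AACACUG by miR-200a-3p and miR-141-3p. The 5p arms of miR-200a and miR-200b share AUCUUAC, and that of miR-200c has GUCUUAC. The miR-200b, miR-200a and miR-429 genes lie together on chromosome 1, with miR-429 at chr1:1169055-1169076 (plus strand), and miR-200c and miR-141 lie together on chromosome 12.

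All 4 family entries that could be tested rose in the libraries labelled TAF1C. Of 338 miRNAs tested with limma, 21.0% rose and 19.2% fell. The entry miR-200c-5p had a deposited signal of 3589, 4067 and 3592 in the libraries labelled TAF1C and 1858 and 1852 in the eV libraries. It was 2.02-fold higher, with a difference of 1.01 ± 0.09 (SE) on the log2(signal + 1) scale (limma adjusted p = 2.77e-05). The entry miR-429 had a signal of 77.1, 76.4 and 71.4 in the libraries labelled TAF1C and 35.97 and 32.31 in the eV libraries (difference 1.11 ± 0.18 (SE) on the log2(signal + 1) scale, limma adjusted p = 0.0011). The groups were separate for both.

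The entry miR-141-5p had a signal of 54.9, 69.7 and 61.2 in the libraries labelled TAF1C and 32.8 and 32.3 in the eV libraries (limma adjusted p = 0.00631). The entry miR-200a-5p had a signal of 692.8, 312.2 and 300.8 in the libraries labelled TAF1C and 123.9 and 122.7 in the eV libraries (limma adjusted p = 0.00237), with replicate 1 of the libraries labelled TAF1C more than 2-fold above the other two. Its difference on the log2(signal + 1) scale was 1.70 ± 0.31 (SE), and 1.31 without that replicate. Its call was lost when miRNAs with zeros were kept (adjusted p = 0.0646). Of the other entries, miR-200b-5p was listed at 0 in 4 libraries and at 693.4 in replicate 3 of the libraries labelled TAF1C, and miR-205-5p, which also targets ZEB messages, was listed at 0 in all but eV replicate 2 (7.25). Zeros stand in at least 1 library for 274 of the 612 entries, so neither was tested.

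The miR-200 signal was higher and the ZEB1 level lower in the same labelled group, while ZEB2 did not pass. The small RNA and long RNA libraries share their group and replicate labels. Whether they came from the same cells was not tested, and no relation between the 2 readouts was tested.

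**Figure D5:**
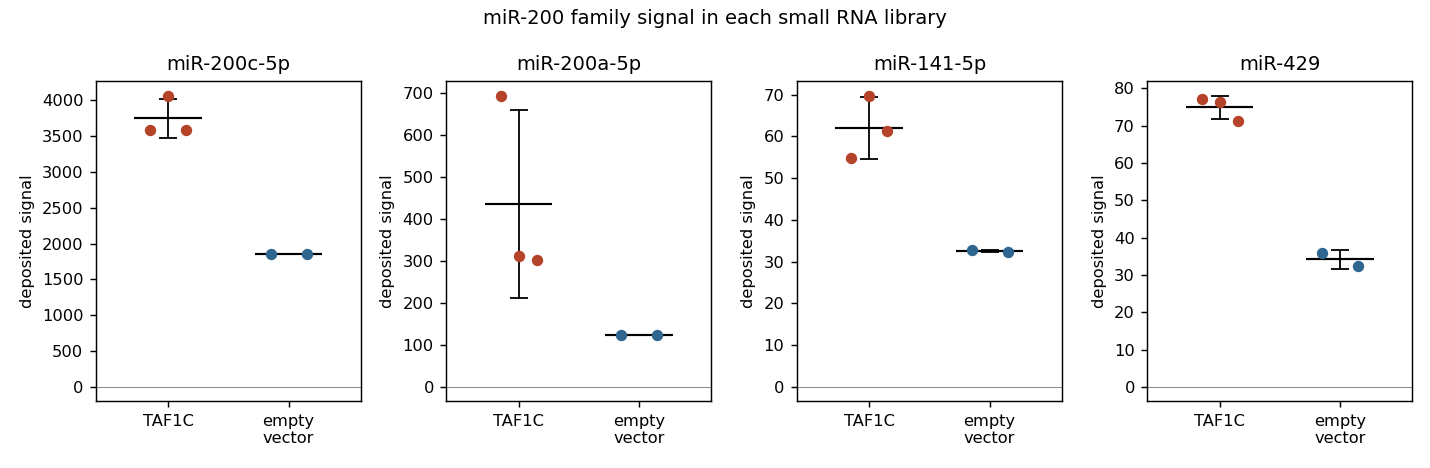
Deposited signal (linear axis) of 4 miR-200 family entries, named as in the table, with 1 point per small RNA library (left, 3 libraries labelled TAF1C, and right, 2 eV libraries) and the mean with its SD as bars. The entry miR-200c-5p stands at 3589 to 4067 in the libraries labelled TAF1C and at 1858 and 1852 in the eV libraries.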

How the data were processed

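Per the labels, long RNA and small RNA came from the same kinds of line. The mirVana kit gave the RNA, per the labels' protocols, and long RNA libraries were depleted of ribosomal RNA. The submitters' processing notes name the build hg19 and, without roles, DESeq2, Cufflinks 2.2.1, HISAT2, Bowtie2 2.2.4 and Trimmomatic 0.36. For long RNA the authors deposited raw counts on 57773 Ensembl rows, which were summed here by symbol (236 symbols stood on several rows). The deposited miRNA signal is not whole numbers, and no source used here states how the authors scaled it. Depth was 22809601 to 37533366 gene counts per long RNA library.

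The main test on counts was edgeR 4.0.16's two-sided quasi-likelihood test (R 4.3.3, TMM), with Benjamini-Hochberg adjustment over the 18402 genes that reached 1 CPM in 2 or more libraries. The miRNA signal was tested with limma 3.58.1 (trend, log2(signal + 1), 338 entries above 0 in all libraries and at least 10 in at least 2). DESeq2 1.42.0 was an alternative. Fits were tried on simulated data that gave both groups the same spread, unlike these long RNA libraries. The check there was on the median recovered log2 change, not on false calls. The members, lists and tests were chosen with earlier results of these data known. List genes were matched by symbol or Ensembl ID (176 of 178). Named were all members, up to 3 raised and 3 lowered genes with the smallest adjusted p per list (at least 1 CPM in the higher group), antisense neighbours, the marker of highest mean CPM over the libraries per cell type, 6 miRNAs and the 2 genes most like each member. The text prints part of these, and KRT5, KRT8, KRT14 and TP63 were added with their values known. The authors' piRNA tables were not used here.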

Additional observations from a re-analysis of the deposited data

How the results depend on the processing

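Over 11 alternatives, FN1, SNAI2, TWIST1, VIM and ZEB1 kept their direction and call. The 4 raised members became 4 to 7, and the 2 lowered ones 1 to 4, with 1 library left out, 7 being the number raised without eV replicate 1. With quantile normalization 1 member fell, since EPCAM was lost (adjusted p = 0.0585). Of all genes, 2922 rose and 4158 fell. Leaving out 1 library gave 1058 to 5967 raised and 1960 to 5665 lowered genes, the replicate block gave 1425 and 2662, and no filter gave 1817 raised genes. The raised share was 41.3%, 31.1% with library totals, 59.6% with quantile normalization, 29.7% with no filter and 34.9% with the replicate block. The median log2 fold change of all genes was -0.33 with library totals and 0.22 with quantile normalization.

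Signs that turned had no tested cause. Without eV replicate 1 the log2 fold change was 1.54 for CDH1, 0.85 for CDH2, 0.77 for ZEB2, -1.49 for SNAI1, 1.06 for PDGFRB, 1.97 for KDR and 0.20 for SNAI3-AS1. Without eV replicate 2 it was -1.48 for CDH1, -0.47 for CDH2, -0.61 for ZEB2, 1.23 for SNAI1, -0.93 for PDGFRB, -0.0264 for KDR and -0.0428 for SNAI3-AS1. With quantile normalization it was 0.80 for CDH1, 0.79 for SNAI1, 0.11 for ZEB2 and 0.49 for PDGFRB. ZEB2 was also at 0.0520 with DESeq2 size factors, 0.0521 with DESeq2, 0.13 with no filter, 0.16 with the replicate block and 0.00158 without TAF1C replicate 3. With library totals CDH2 was at -0.20 and SNAI3-AS1 at -0.11, and with the replicate block PDGFRB was at 0.0915.

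The difference in CDH2 share ran from -0.37 to 0.95 percentage points with 1 library left out. Among miRNAs, miR-200a-5p was lost with no filter on low values (1.70, adjusted p = 0.0646). With 1 small RNA library left out, the difference ran from 1.31 to 1.91 for miR-200a-5p, 0.95 to 1.04 for miR-200c-5p, 0.81 to 0.98 for miR-141-5p and 1.04 to 1.19 for miR-429. The replicate number was shared by 2 pairs only, whose deviations correlated at 0.04 and 0.14, so the numbers were not taken as pairs. As a block, replicate 3, which only the libraries labelled TAF1C have, took its own term, so the group comparison rested on the 2 pairs. The block changed the call of 0 members, while TWIST2, ZEB1-AS1, FOXA1, CDS1, CTNNA1, PKP3, DSC3 and HBB lost their calls (adjusted p = 0.0507 to 0.139). Whether pairing or the library set aside lay behind the lost calls was not tested. CDH1, EPCAM and SNAI1 rest on few counts, which limits what these libraries can show.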

Other observations

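Markers of cell types that a bronchial line should lack, and of airway epithelium, gave the following counts. Among all genes tested, 15.9% rose and 22.6% fell. Of 4 tested haematopoietic markers 1 fell, HBB, at 20.8 to 24.5 CPM in the libraries labelled TAF1C and 40.5 and 31.8 CPM in the eV libraries. No haematopoietic marker was called with 1 of the libraries labelled TAF1C left out. Of 5 tested endothelial markers 1 fell, and 0 with 1 of the libraries labelled TAF1C left out. Their median log2 fold change was 0.34 without eV replicate 1 and -0.80 without replicate 2. KDR was at 19.5 to 21.4 CPM in the libraries labelled TAF1C and 20.3 and 4.94 CPM in the eV libraries. Of 6 tested airway markers 3 rose and 1 fell. The 1 that fell, FOXJ1, did not reach 1 CPM in any library labelled TAF1C and entered the test through the eV libraries alone. KRT7 was at 967.3 to 1062 CPM in the libraries labelled TAF1C and 222.9 and 247.2 CPM in the eV libraries.

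The photoreceptor marker IMPG2 was at 0.529 to 0.989 CPM in the libraries labelled TAF1C and at 869.5 and 680.1 CPM in the eV libraries. The neuronal marker SYP was at 1.65 to 2.71 CPM in the libraries labelled TAF1C and at 137.0 and 144.4 CPM in the eV libraries.

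Among antisense neighbours of the members and their relatives, SNAI3-AS1 was at 4.56 to 5.50 CPM in the libraries labelled TAF1C and 5.13 and 4.23 CPM in the eV libraries, and did not pass. ZEB2-AS1, AC073283.4 (beside EPCAM) and AC012462.1 (beside FN1) stayed under 1 CPM in every library.

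For miRNA the eV pair did not stand apart as in long RNA. The SD of the log2 difference over 338 entries was 0.257 to 0.486 between pairs of libraries labelled TAF1C and 0.275 between the eV libraries.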
